A study of Homo sapiens with 6 samples.

Results

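Macroautophagy genes were followed in Huh7 cells, a human hepatocellular carcinoma line, with and without knockdown of CTSV, which encodes the lysosomal cysteine protease cathepsin V. The genes are a list of 35 named by function, covering the core machinery and the cargo receptors, and each of the 35 was found under its own name among the 27394 gene names of the count table. The groups compared were 3 Huh7 libraries carrying a control shRNA (short hairpin RNA), whose genotype is labelled WT, and 3 carrying an shRNA against CTSV, labelled CTSV knockdown. No treatment is given for either group, and no source used here gives the shRNA sequences, their number or whether the lines were clones. Separate cultures are not named for the libraries of a group, so the p-values cover no more than the differences among these libraries, possibly technical ones.

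Macroautophagy encloses cytoplasm in a double membrane that later fuses with the lysosome, where cathepsins and other hydrolases degrade the contents. The ULK kinase complex starts the process, the class III phosphatidylinositol 3-kinase complex marks the membrane with the lipid PI3P, and ATG9A with the ATG2 proteins supplies lipid. Linked conjugation reactions attach ATG8 proteins (the LC3 and GABARAP families) to the membrane, where cargo receptors bind them. In hepatocytes the pathway is known for clearing protein aggregates, organelles and lipid droplets, and the receptor SQSTM1 (p62) is known to accumulate in hepatocellular carcinoma.

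The libraries held between 16258803 and 18106207 counts. Levels of a gene are given as CPM, its counts scaled to a common library size with edgeR's TMM factors. Levels of different genes are compared only as TPM, which also divides by transcript length. In bulk RNA, fewer cells with a transcript and less of it per cell cannot be told apart. The targeted gene was lower in each knockdown library, with CTSV at 42.3, 44.5 and 41.0 CPM across controls and 18.4, 16 and 16.3 CPM after knockdown. The fitted log2 fold change was -1.34 (SE 0.0958), with an adjusted p of 7.2e-14 by the quasi-likelihood test of edgeR. Mitochondrially encoded genes took 9.09% to 9.51% of control counts and 11.4% to 11.8% of knockdown counts. The 10 hepatocyte and Huh7 markers summed to between 34640 and 35396 CPM across controls and between 42467 and 43607 CPM after knockdown, where 7 of them rose and TTR fell. TTR and HNF4A, 1 of the 7, had overlapping groups, and their calls held in 4 and 5 of 6 fits without 1 library. The 3 measured cholangiocyte markers summed to 171.9 to 188.8 and 168.9 to 183.5 CPM, but EPCAM among them rose by 1.08 in log2 units and SOX9 fell by 0.17. Calls of EPCAM and SOX9 held in 6 and 5 of 6 such fits. The other types gave 4 stellate and fibroblast markers at a summed 37.7 to 43.2 and 44.0 to 50.0 CPM, where LUM rose by 0.21 (called in 1 of 6 fits without 1 library), 3 endothelial markers at 18.3 to 23.8 and 19.8 to 22.1 CPM, and CD14, the 1 measured leukocyte marker, at 2.19 to 3.13 and 1.82 to 2.73 CPM. The other 11 markers of these types were not analysed here. A fit without the mitochondrially encoded genes gave 4 rises and 11 falls among the listed genes, against 4 and 10 with them. Beyond that, the part of any of these shifts in the results below was not tested.

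A gene was called when the adjusted p of edgeR's quasi-likelihood test was under 0.05, and "rose" and "fell" are used only of called genes. Of the 35 genes, 34 passed the filter on low counts, and MAP1LC3A did not. Among the 34, 10 fell, 4 rose and 20 were not called. Over all 15968 tested genes 21.6% fell and 18.7% rose, and over the 12651 tested protein-coding genes 26.2% fell and 18.6% rose. The autophagy genes were thus called about as often as other genes, at 41.2% against 40.3% of all tested genes and 44.8% of protein-coding ones, so the count of calls is near the background. Their median log2 fold change was -0.07, against 0.02 for all tested genes and -0.03 for protein-coding genes. The sizes varied among them: SQSTM1 had a log2 fold change of -1.005, 5 further called genes changed by 0.3 or more on the log2 scale, and 13 of the 34 lay within 0.1 of 0.

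The promoters of the 6 called genes that changed by at least 0.3 on the log2 scale are printed here to show what sequence lies before the starts of genes that moved in opposite directions. Each is the stretch of 250 bases before a RefSeq start (GRCh38.p14), 5′ to 3′ on the strand of the gene, with matches to the GC box GGGCGG and to TGACNNNGC, the core of the antioxidant response element, in capitals (both strands were searched). The SQSTM1 window is at chr5:179820655-179820904, plus strand, before the RefSeq start nearest to the main transcript out of 3 RefSeq starts. ATG101 is at chr12:52069728-52069977, plus strand, WIPI1 at chr17:68457497-68457746, minus strand, ATG7 at chr3:11272147-11272396, plus strand, MAP1LC3B at chr16:87392086-87392335, plus strand, and ULK1 at chr12:131894372-131894621, plus strand.
SQSTM1: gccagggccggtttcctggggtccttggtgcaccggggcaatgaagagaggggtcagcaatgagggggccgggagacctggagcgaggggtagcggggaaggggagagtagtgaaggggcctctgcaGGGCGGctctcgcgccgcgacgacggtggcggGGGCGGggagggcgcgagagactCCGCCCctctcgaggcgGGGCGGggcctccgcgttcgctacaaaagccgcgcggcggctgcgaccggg
ATG101: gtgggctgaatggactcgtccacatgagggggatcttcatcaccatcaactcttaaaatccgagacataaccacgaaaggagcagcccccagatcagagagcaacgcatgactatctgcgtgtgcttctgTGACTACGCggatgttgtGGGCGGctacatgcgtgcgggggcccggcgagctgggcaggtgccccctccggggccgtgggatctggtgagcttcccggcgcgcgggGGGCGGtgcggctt
WIPI1: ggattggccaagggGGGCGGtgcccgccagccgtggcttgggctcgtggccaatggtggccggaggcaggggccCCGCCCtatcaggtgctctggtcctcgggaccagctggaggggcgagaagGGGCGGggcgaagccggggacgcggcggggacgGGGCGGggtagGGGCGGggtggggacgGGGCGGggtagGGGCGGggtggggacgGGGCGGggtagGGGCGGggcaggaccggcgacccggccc
ATG7: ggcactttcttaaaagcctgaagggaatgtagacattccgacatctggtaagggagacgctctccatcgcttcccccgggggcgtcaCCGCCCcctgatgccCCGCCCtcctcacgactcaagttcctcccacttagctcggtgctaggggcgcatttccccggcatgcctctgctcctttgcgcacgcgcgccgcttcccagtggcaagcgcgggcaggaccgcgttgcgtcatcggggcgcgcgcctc
MAP1LC3B: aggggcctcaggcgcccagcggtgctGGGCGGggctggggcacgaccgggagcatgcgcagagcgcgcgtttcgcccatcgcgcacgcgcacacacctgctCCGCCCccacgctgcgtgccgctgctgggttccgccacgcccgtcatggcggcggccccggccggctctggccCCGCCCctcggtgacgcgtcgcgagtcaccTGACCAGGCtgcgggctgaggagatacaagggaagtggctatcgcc
ULK1: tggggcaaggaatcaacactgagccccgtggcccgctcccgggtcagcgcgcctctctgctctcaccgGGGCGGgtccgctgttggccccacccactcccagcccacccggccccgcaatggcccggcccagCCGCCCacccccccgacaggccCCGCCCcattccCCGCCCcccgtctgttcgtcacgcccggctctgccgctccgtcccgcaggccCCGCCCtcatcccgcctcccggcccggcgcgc
The first 5 of these genes fell and ULK1 rose. The GC box occurred 4 times in the SQSTM1 window, 2 in ATG101, 9 in WIPI1, 2 in ATG7, 3 in MAP1LC3B and 5 in ULK1. Of 38 RefSeq windows of 31 member genes, 71.1% held it, against 42.6% of all 35116 windows of this length and 59.6% of the 16331 of protein-coding genes. TGACNNNGC was found in the windows of MAP1LC3B, ATG101 and CALCOCO2, 7.89% of the 38 against 10.9% of all windows and 11.5% of the protein-coding ones. In MAP1LC3B its first base lay 46 bases before the RefSeq start, which lies 536 bases from the start of the main transcript. In ATG101 its first base lay 120 bases before the RefSeq start, which lies 7 bases from that of the main transcript. CACGTG, the E-box to which TFEB and its relatives bind, was found in ATG14 and ATG3, in 5.26% of the windows against 6.34% of all and 7.89% of the protein-coding ones. The longer TCACGTGA, which contains CACGTG, and TGATGCAA, an element known for ATF4 binding, were in none of the 38 windows and in 0.854% and 0.772% of all windows. A match describes these letters only, and counts per gene do not tell which start was used.

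Among the cargo receptors, SQSTM1 fell to 0.498 of its control level, NBR1 rose and TAX1BP1 fell by small amounts, and 2 receptors were not called. SQSTM1 binds ubiquitin and LC3, and is itself degraded with its cargo. It lies on chromosome 5 from 179806398 to 179838078 on hg38 (plus strand, ENSG00000161011). SQSTM1 stood at 533.6, 591.0 and 569.7 CPM across controls and 272.9, 291.6 and 279.8 CPM after knockdown. The groups were far apart, with the lowest control at 533.6 CPM and the highest knockdown library at 291.6 CPM. These rest on 9518, 9821 and 9145 counts against 4512, 4813 and 5086. The log2 fold change was -1.005 (SE 0.0466, adjusted p = 5.2e-19, edgeR), and it lay between -1.05 and -0.975 when any 1 library was left out. MRNIP, on the opposite strand, shares 20.7% of the exon bases of SQSTM1, and strand use in counting is not stated. MRNIP had 904, 902 and 868 counts across controls and 913, 859 and 964 in the knockdown libraries, ranges that overlap. MGAT4B, also on the opposite strand, shares 1.37% and had 4149, 4483 and 3985 counts against 3219, 3057 and 3413, lower after knockdown like SQSTM1, and its part was not tested.

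NBR1, the receptor most like SQSTM1 in domain layout, moved the other way. It was at 93.6, 91.9 and 92.0 CPM across controls and 104.6, 107.7 and 109.7 CPM after knockdown, with no overlap. NBR1 rose by 0.22 in log2 units (SE 0.0568, adjusted p = 0.00235, edgeR), but with offsets for transcript length and GC content the value was 0.11 and was not called (adjusted p = 0.0794). The lincRNA gene AC060780.1 shares 5.51% of the exon bases of NBR1 on the opposite strand and had 282, 167 and 301 counts in controls against 416, 409 and 486, and without strand their reads cannot be told apart in the shared exons. Within each library, the log2 ratio of SQSTM1 to NBR1 per kilobase was 3.25 ± 0.0887 across controls and 2.03 ± 0.0437 after knockdown (SD, n = 3 each). This difference of -1.22 needs no scaling between libraries, and its exact two-sided permutation p was 0.1, the smallest that 3 against 3 libraries allow.

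TAX1BP1, a receptor for ubiquitinated cargo, was at 292.4, 292.2 and 299.0 CPM across controls and 268.9, 265.1 and 273.6 CPM after knockdown. It fell by 0.13 in log2 units (SE 0.0457, adjusted p = 0.0218, edgeR), a small change in groups that did not overlap, and the call was lost in 3 of 6 fits that left out 1 library. With length and GC offsets its value was -0.25 (adjusted p = 1.7e-06, edgeR). OPTN, a receptor for damaged mitochondria and bacteria, was at 118.7, 125.6 and 131.6 CPM across controls and 117.6, 123.2 and 122.0 CPM after knockdown, and its groups overlapped, with 2117, 2087 and 2113 counts against 1945, 2033 and 2218. Its log2 fold change was -0.05 (SE 0.0554, adjusted p = 0.499, edgeR), and with length and GC offsets it was -0.15 and called (adjusted p = 0.0175). CALCOCO2 (NDP52), which targets bacteria and mitochondria, ran from 58.6 to 61.3 CPM across controls and from 59.2 to 65.6 CPM after knockdown, with a log2 fold change of 0.06 (adjusted p = 0.515, edgeR).

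Per transcript length, SQSTM1 was at 445.6 ± 18.1 TPM in controls, above TAX1BP1 at 240.1 ± 8.35 TPM. In knockdown libraries SQSTM1 was at 230.5 ± 9.93 and TAX1BP1 at 227.7 ± 6.92 TPM (SD, n = 3 each), a difference within their spread. SQSTM1 thus made up 52.1% ± 1.17 of the summed TPM of the 5 receptors across controls and 35.9% ± 0.726 after knockdown. The summed level of the 5 was 1137 ± 33.4 CPM across controls and 842.0 ± 12.6 CPM after knockdown. Without SQSTM1 the other 4 summed to 572.7 ± 7.83 and 560.5 ± 4.665 CPM, so that nearly the whole drop of the group lay in SQSTM1.

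**Figure D1:**
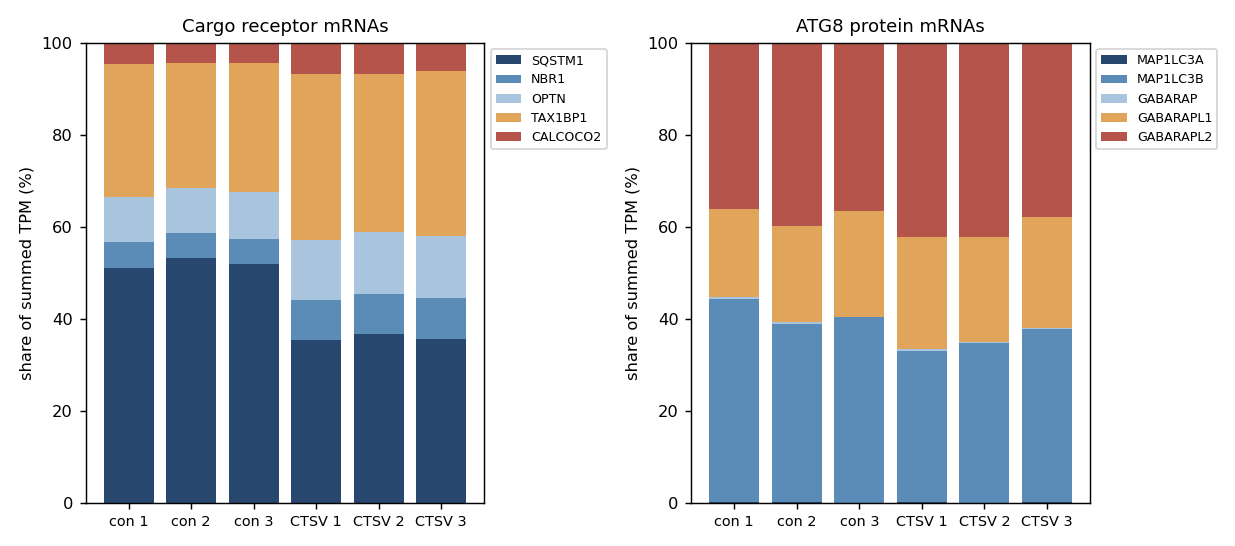
Share of each gene in the summed TPM (percent, vertical axis) of the 5 cargo receptors (left) and the 5 ATG8 protein genes (right), in 3 control (con) and 3 CTSV shRNA (CTSV) libraries. The SQSTM1 segment is 51.0% to 53.3% across controls and 35.4% to 36.8% after knockdown, while MAP1LC3B takes 38.8% to 44.0% and 32.9% to 37.5% of the ATG8 genes.

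Among the ATG8 proteins, only MAP1LC3B of the 4 tested genes was called. MAP1LC3B encodes LC3B, which is lipidated on the growing membrane and binds receptors such as SQSTM1. The gene lies on chromosome 16 from 87383995 to 87404779 (plus strand). It was at 154.0, 150.3 and 134.7 CPM across controls and 109.6, 110.7 and 119.7 CPM after knockdown, each of the latter below each control. MAP1LC3B fell by 0.37 in log2 units (SE 0.0577, adjusted p = 2.5e-06, edgeR). MAP1LC3B2, a near-identical copy, had 12 to 40 counts per library, and the division of reads that match both genes is uncertain. MAP1LC3B itself had 2747, 2497 and 2163 counts against 1812, 1827 and 2176.

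The GABARAP family acts at later steps, including fusion, and gave no call. GABARAPL1 was at 48.8, 58.6 and 55.6 CPM across controls and 59.1, 53.3 and 56.3 CPM after knockdown (log2 fold change 0.05, SE 0.0757, adjusted p = 0.631, edgeR). GABARAPL2 was at 47.1, 57.6 and 45.7 CPM and 52.5, 50.05 and 44.9 CPM (log2 fold change -0.03, SE 0.0839, adjusted p = 0.815, edgeR). In both genes the groups overlapped. Per length, MAP1LC3B was at 128.2 ± 7.90 TPM and GABARAPL2 at 117.6 ± 12.3 TPM in controls, while in knockdown libraries GABARAPL2 at 119.9 ± 7.31 TPM exceeded MAP1LC3B at 103.2 ± 6.85 TPM in each of the 3 (SD, n = 3). The log2 ratio of these genes went from 0.13 ± 0.163 to -0.22 ± 0.184, with an exact permutation p of 0.2 and an overlap of 1 knockdown library with the controls.

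GABARAP and MAP1LC3A were at or near the floor of detection. GABARAP was listed at 15, 15 and 3 counts across controls and 14, 5 and 9 after knockdown, although it is commonly a well expressed gene. In GENCODE v29 the gene AC120057.2 shares 30.5% of the exon bases of GABARAP (chromosome 17, 7240014 to 7242770, minus strand) on the same strand, and AC120057.2 was not analysed here. No source used here says how reads in shared exons were counted, so the GABARAP level is uncertain and its share in the ATG8 family is a value of this table only. MAP1LC3A had 10, 5 and 1 counts across controls and 4, 0 and 5 after knockdown and was not tested.

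In the ULK kinase complex the catalytic subunit and its partners moved apart. ULK1, the kinase that starts autophagosome formation, was at 71.7, 67.0 and 82.0 CPM across controls and 106.9, 105.2 and 107.5 CPM after knockdown. All 3 knockdown libraries were above all controls and close to each other, with 1279, 1113 and 1316 counts against 1768, 1736 and 1955. ULK1 rose by 0.54 in log2 units (SE 0.0648, adjusted p = 1.8e-08, edgeR), the largest rise of the 34 genes. It lies on chromosome 12 from 131894651 to 131923167 (plus strand).

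ATG101, which stabilises the complex by pairing with ATG13, fell by 0.65 (SE 0.104, adjusted p = 4.0e-06, edgeR), from 32.2, 27.6 and 27.3 CPM to 19.7, 18.7 and 17.3 CPM (574, 459 and 438 counts against 325, 309 and 314). The antisense gene AC025259.1 shares 19.2% of its exon bases and was not analysed here. ATG13, the adaptor between kinase and scaffold, was at 67.8, 69.8 and 74.2 CPM across controls and 53.5, 63.9 and 63.7 CPM after knockdown. It fell by 0.23 (adjusted p = 0.0113, edgeR), with knockdown replicate 1 the lowest, and was not called without that library (adjusted p = 0.13) or without control replicate 3 (0.0623). RB1CC1 (FIP200), the scaffold, was at 81.5, 76.1 and 74.0 CPM and 61.7, 67.4 and 71.1 CPM. It fell by 0.21 (adjusted p = 0.0117, edgeR) and was not called without knockdown replicate 1 (0.0922) or control replicate 1 (0.0737), while with length and GC offsets its value was -0.38 (2.7e-06). The second kinase gene ULK2 had 19, 19 and 9 counts across controls and 7, 20 and 22 after knockdown, and its log2 fold change of 0.04 had an SE of 0.512, so that only a large change could have been called. The summed level of the 5 genes was 251.3 ± 8.61 CPM across controls and 253.1 ± 9.74 CPM after knockdown (SD, n = 3 each).

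The class III phosphatidylinositol 3-kinase complex held 1 called gene of 5. BECN1, the beclin subunit that regulates the lipid kinase, was at 49.45, 51.75 and 43.2 CPM across controls and 41.7, 43.7 and 39.4 CPM after knockdown, and the groups overlapped. It fell by 0.21 (SE 0.0816, adjusted p = 0.0365, edgeR), and the call was lost in 4 of the 6 fits without 1 library (adjusted p = 0.0611 to 0.161) and with DESeq2 (0.0626). On the opposite strand CNTD1 shares 12.4% of its exon bases, with 17, 35 and 46 counts against 35, 34 and 49. PSME3 shares 4.68%, with 2916, 2560 and 2656 counts against 1909, 1996 and 2107, lower after knockdown like BECN1, and its part was not tested. The kinase gene PIK3C3 (0.08), its regulatory subunit PIK3R4 (0.12), the autophagy-specific subunit ATG14 (0.08) and UVRAG (-0.09), which replaces ATG14 in the form acting on endosomes, were not called. PIK3R4 was at 81.85, 76.8 and 84.4 CPM across controls and 87.4, 86.0 and 89.9 CPM after knockdown, with 1460, 1276 and 1355 counts against 1445, 1420 and 1634, above the controls in CPM in all 3 but with an adjusted p of 0.131 in the edgeR test. The 5 genes summed to 277.6 ± 2.73 CPM across controls and 282.2 ± 1.28 CPM after knockdown.

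Of the genes that supply lipid, ATG2B rose and the others were not called. ATG2A and ATG2B encode rod-like proteins that carry lipids to the growing membrane, and ATG9A a scramblase of the vesicles that seed it. ATG2B was at 57.5, 56.0 and 60.3 CPM across controls and 63.15, 77.7 and 72.4 CPM after knockdown. Its rise of 0.29 in log2 units (SE 0.0726, adjusted p = 0.00119, edgeR) shrank to 0.12 with length and GC offsets and was then not called (adjusted p = 0.162). GSKIP, on the opposite strand, shares 2.84% of its exon bases and had 309, 245 and 284 counts against 401, 333 and 405. ATG2B has the longest transcript of the 35 genes, at 13684 bases. ATG2A was at 38.1, 38.3 and 38.7 CPM and 39.0, 41.6 and 45.7 CPM, a log2 fold change of 0.14 (adjusted p = 0.196, edgeR). ATG9A was at 98.0, 109.5 and 109.3 CPM across controls and 96.7, 95.6 and 97.3 CPM after knockdown (1748, 1820 and 1754 counts against 1599, 1578 and 1769). Its value of -0.13 was not called (adjusted p = 0.0797, edgeR), but was in 3 alternatives, among them without control replicate 1 (0.0229). In GENCODE v29 the gene AC068946.2 shares 38.8% of the exon bases of ATG9A on the same strand and was not analysed here, so the ATG9A level is uncertain too.

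WIPI1 and WIPI2 read the PI3P mark and bring in the conjugation machinery. WIPI1 was at 25.3, 28.3 and 26.8 CPM across controls and 14.3, 19.45 and 18.8 CPM after knockdown, with knockdown replicate 1 lowest (452, 471 and 430 counts against 236, 321 and 342). It fell by 0.61 (SE 0.112, adjusted p = 3.1e-05, edgeR), and by 0.49 without that replicate. ARSG on the opposite strand shares 24.3% of its exon bases and had 55, 77 and 76 counts across controls and 26, 45 and 65 after knockdown. WIPI2, the member that recruits ATG16L1, was at 77.0, 78.5 and 80.8 CPM and 73.2, 71.9 and 67.55 CPM, groups that did not overlap, with 1373, 1304 and 1297 counts against 1210, 1186 and 1228. Its log2 fold change of -0.15 was just short of the threshold (adjusted p = 0.0529, edgeR) and passed it in 3 alternatives. Their log2 ratio per kilobase went from -1.35 ± 0.0745 to -1.82 ± 0.286 (SD, n = 3 each, exact permutation p = 0.1).

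In the conjugation system 2 of 6 genes fell and none rose. ATG7, the E1-like enzyme that activates both ATG12 and the ATG8 proteins, was at 29.04, 30.4 and 29.3 CPM across controls and 19.7, 21.1 and 25.2 CPM after knockdown (518, 505 and 470 counts against 325, 348 and 458). It fell by 0.43 (SE 0.102, adjusted p = 9.2e-04, edgeR). VGLL4 shares 18.1% of its exon bases on the opposite strand and had 360, 307 and 318 counts across controls and 280, 345 and 365 after knockdown. ATG16L1, which places the ATG12-ATG5 conjugate on the membrane, was at 62.7, 55.7 and 60.0 CPM and 50.3, 50.2 and 47.0 CPM, and fell by 0.28 (SE 0.073, adjusted p = 0.002415, edgeR).

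The remaining conjugation genes were not called. ATG12, the ubiquitin-like modifier, was at 71.3, 66.1 and 65.5 CPM across controls and 70.1, 72.3 and 71.6 CPM after knockdown, with 1271, 1098 and 1052 counts against 1159, 1193 and 1301 and a log2 fold change of 0.08 (adjusted p = 0.371, edgeR). ATG5, to which ATG12 is joined, had a log2 fold change of -0.04, which was -0.17 and called with length and GC offsets (adjusted p = 0.0358, edgeR). For ATG3, the E2-like enzyme for ATG8 proteins, it was -0.08. ATG10, the E2-like enzyme for ATG12, had -0.35 and the lowest control level of the 6 per length, 7.05 TPM. It was at 9.31, 9.39 and 8.535 CPM across controls and 6.895, 8.24 and 6.33 CPM after knockdown. Its groups did not overlap, but the adjusted p was 0.0951 in the edgeR test, and 0.0254 with length and GC offsets (log2 fold change -0.45). RPS23, on the opposite strand, shares 6.86% of the exon bases of ATG10. It had 1591, 1604 and 1329 counts against 1225, 1098 and 1291, lower after knockdown like ATG10, and its part was not tested.

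Of the ATG4 proteases, which cut ATG8 proteins before lipidation and release them from membranes, ATG4B rose and the other 3 were not called. ATG4B, the main processing enzyme for LC3, was at 100.7, 99.05 and 96.6 CPM across controls and 113.4, 117.8 and 120.5 CPM after knockdown, a rise of 0.25 (SE 0.056, adjusted p = 4.9e-04, edgeR). ATG4A (0.03), ATG4C (-0.02) and ATG4D (-0.24) had overlapping groups, and ATG4D had only 59 to 100 counts per library, with KRI1 on the opposite strand sharing 15.0% of its exon bases. The 4 protease genes summed to 151.3 ± 5.67 CPM across controls and 168.9 ± 3.21 CPM after knockdown, groups that did not overlap, while the 5 ATG8 genes summed to 251.8 ± 15.7 and 219.5 ± 4.425 CPM (SD, n = 3 each).

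**Figure D2:**
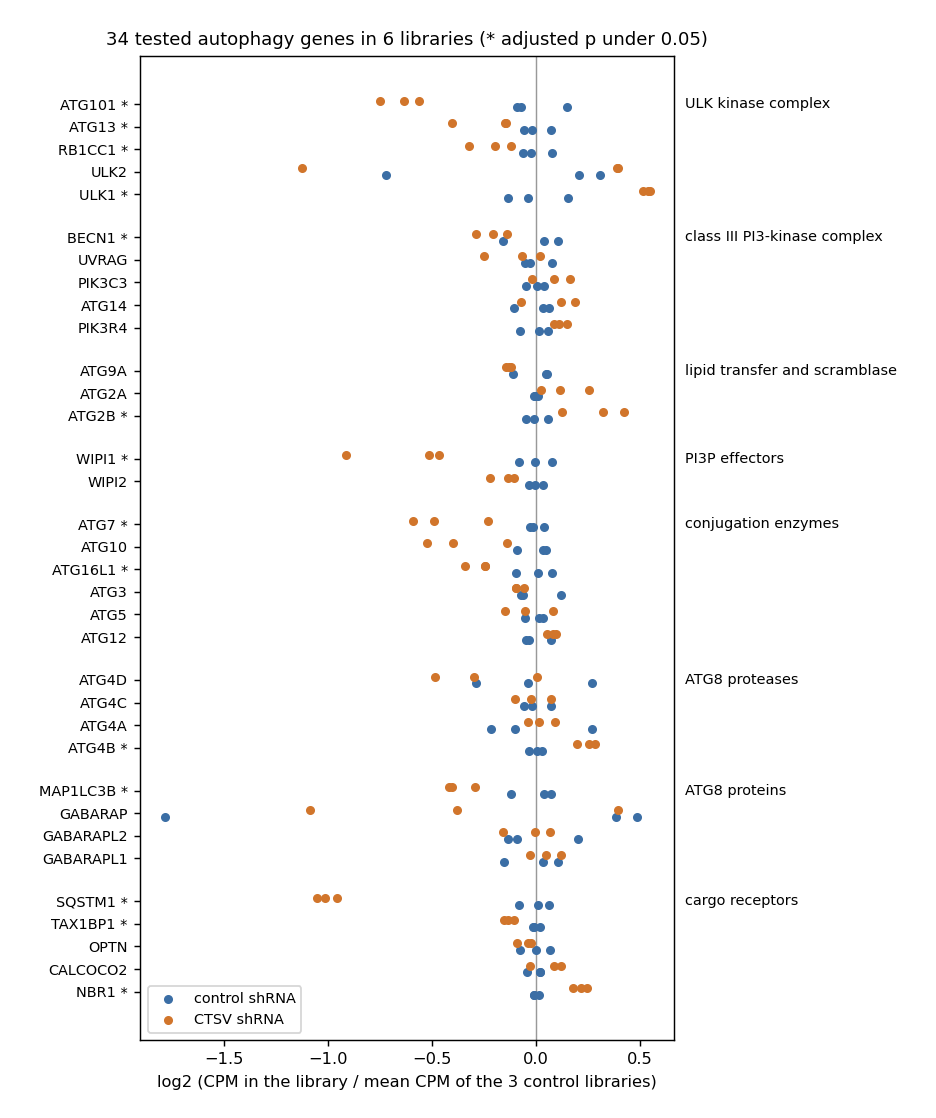
Each of the 34 tested genes (rows, grouped by role) in 6 libraries, as log2 of the CPM in a library over the mean CPM of the 3 controls (horizontal axis). Blue points are controls, orange points CTSV shRNA libraries, and an asterisk marks an adjusted p under 0.05. SQSTM1 stands about 1 log2 unit below its controls, ULK1 about 0.5 above, and ULK2 and GABARAP scatter widely at 3 to 22 counts.

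Over all 34 genes, 12 had each knockdown library below each control and 6 had each above, and 16 overlapped. Over all tested genes the shares were 25.0% below and 24.1% above, and over protein-coding genes 29.9% and 23.2%. Summed over the 35 genes, the level was 2682 ± 43.1 CPM across controls and 2347 ± 38.4 CPM after knockdown, and without SQSTM1 it was 2117 ± 14.4 and 2066 ± 30.7 CPM (SD, n = 3 each). Of 9 ratios between related genes that could be computed, 4 reached the smallest exact permutation p of 0.1, namely ATG2A to ATG2B, WIPI1 to WIPI2, SQSTM1 to NBR1 and CALCOCO2 to TAX1BP1, and adjusted over the 9 the p was 0.225 for each. With this number of libraries no such ratio could pass.

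**Figure D3:**
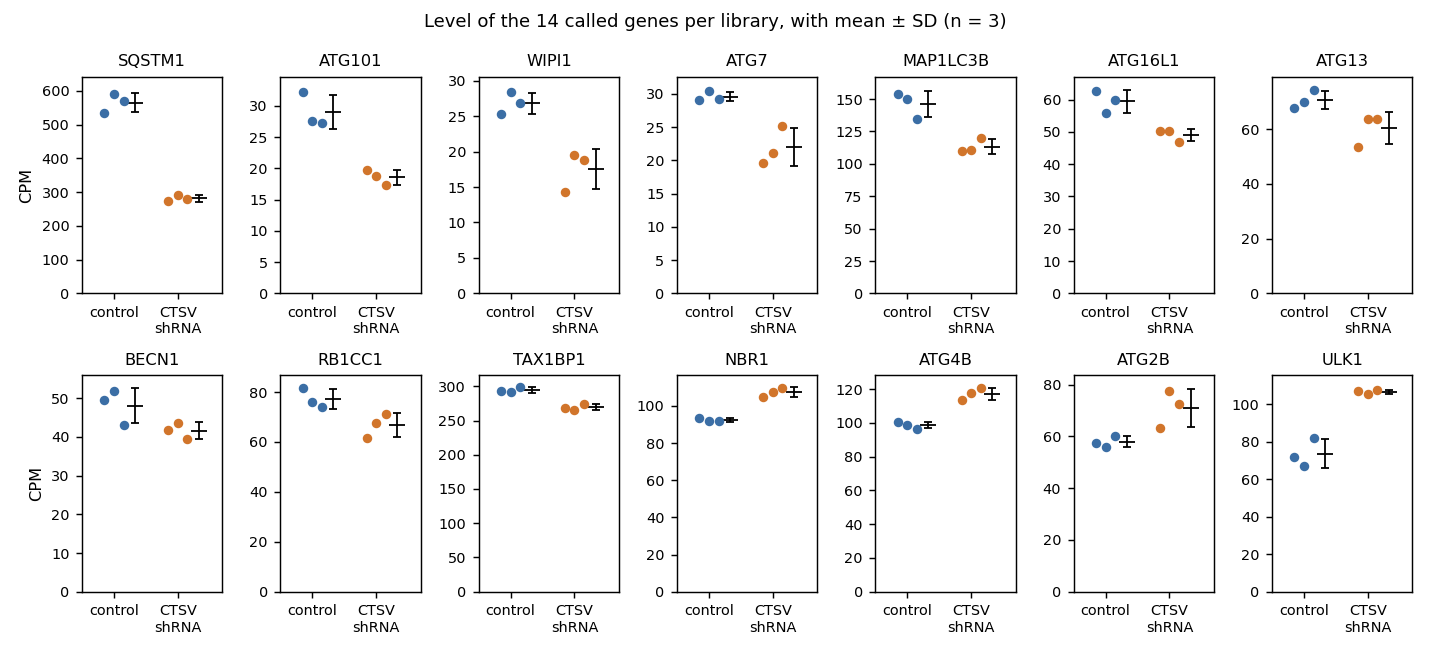
CPM (vertical axis, from 0) of the 14 called genes in each control (blue) and CTSV shRNA (orange) library, with mean ± SD (n = 3) as black bars, ordered from the strongest fall to the strongest rise. The groups overlap in BECN1 only, and the left orange point of each panel is knockdown replicate 1.

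Of the 14 calls, 8 held under each of 14 alternatives, namely the falls of SQSTM1, ATG101, WIPI1, ATG7, MAP1LC3B and ATG16L1 and the rises of ULK1 and ATG4B. Without knockdown replicate 1 the genes that fell were 6, the calls of ATG13, RB1CC1, BECN1 and TAX1BP1 being lost. With offsets for transcript length and GC content 2 rose and 15 fell, and over all genes the share of calls that fell went from 53.6% to 67.5%. The authors' deposited table gives 13 of the 14 an adjusted p under 0.05 with the same direction, the exception being BECN1 at 0.0643 in the authors' deposited table. Those values come from the same libraries and match the DESeq2 alternative, with SQSTM1 at -1.015 and ULK1 at 0.525 in both once the sign is turned. They are therefore no separate support.

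**Figure D4:**
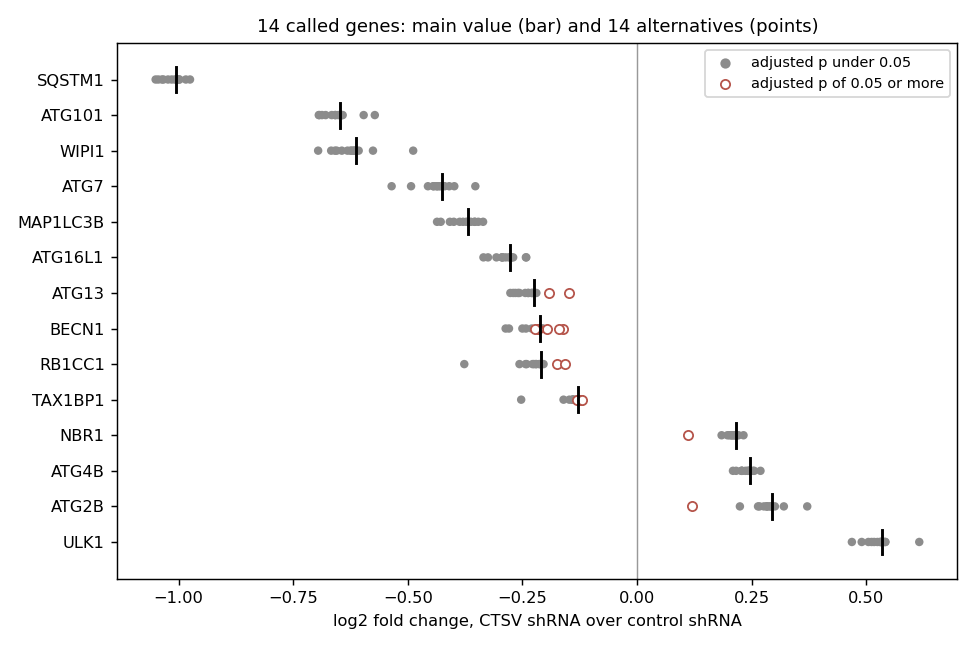
Log2 fold change (horizontal axis, CTSV shRNA over control shRNA) of the 14 called genes as reported (black bar) and under 14 alternatives (points), with open points where the adjusted p was 0.05 or more. Open points occur for ATG13, BECN1, RB1CC1, TAX1BP1, NBR1 and ATG2B, and no point crosses 0.

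A longer list of 68 other autophagy genes, covering regulators, fusion factors and receptors for organelles, held 63 genes with counts, of which all were tested. Among them 27 fell, 8 rose and 28 were not called, with a median log2 fold change of -0.15. These shares of 42.9% and 12.7% stand beside the 21.6% and 18.7% of all tested genes and the 26.2% and 18.6% of protein-coding ones given above. This list was chosen with earlier results of these data known, so no excess of falls in the pathway can be read from them. Genes of the fusion step moved in both directions. The small GTPase gene RAB7A fell by 0.56 (adjusted p = 4.0e-12, edgeR), from 341.5, 361.7 and 339.3 CPM to 228.2, 242.3 and 235.8 CPM. Per length it was the most abundant of the named falls, at 364.8 ± 4.06 TPM in controls (SD, n = 3). The SNARE gene YKT6 fell by 0.46 and VPS33A, a subunit of the tethering complex HOPS, by 0.43. Outside the 5 largest changes each way, and named after their values were seen, the fusion SNARE gene STX17 rose by 0.40 (adjusted p = 0.00132, edgeR) and its partner SNAP29 fell by 0.22. The HOPS gene VPS16 rose by 0.25 (adjusted p = 0.00833, edgeR), VPS41 fell by 0.16, and VPS11, VPS18, VPS39, VAMP8 and STX7 were not called. Of the 6 fits without 1 library, the call held in 6 for STX17, 5 for SNAP29, 4 for VPS16 and 3 for VPS41. STBD1, a glycogen receptor, fell by 0.90 at 35 to 94 counts per library, and NUFIP1, a ribosome receptor, fell by 0.50 with overlapping groups. The calls of STBD1 and NUFIP1 each failed in at least 1 fit without 1 library, where their adjusted p reached 0.07025 and 0.119.

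Receptor genes on that list also moved in both directions. CALCOCO1, a paralog of CALCOCO2 and a receptor for the endoplasmic reticulum and Golgi, was at 53.2, 56.6 and 56.4 CPM across controls and 107.2, 99.2 and 94.18 CPM after knockdown. It rose by 0.85 in log2 units (SE 0.0652, adjusted p = 3.8e-13, edgeR), while CALCOCO2 was not called. RETREG1 (FAM134B), a receptor for the endoplasmic reticulum, rose by 2.80 (SE 0.476, adjusted p = 9.8e-06, edgeR) from a very low level, with 13, 5 and 2 counts across controls and 39, 43 and 61 after knockdown. Of other receptors for the endoplasmic reticulum, named after their values were seen, SEC62 fell by 0.33, CCPG1 by 0.35 and RTN3 by 0.15. The adjusted p of RTN3 reached 0.0707 in a fit without 1 library (edgeR). TEX264 (-0.23) and ATL3 (0.01) were not called, and their groups overlapped. Among receptors and adaptors for other cargo, also named after their values were seen, BCL2L13 (-0.18), FKBP8 (-0.28), PHB2 (-0.32), TOLLIP (-0.23) and NIPSNAP2 (-0.31) fell. BNIP3L (0.16), BNIP3 (-0.15), FUNDC1 (-0.11), NCOA4 (-0.09) and NIPSNAP1 (0.04) were not called. ATG16L2, the paralog of ATG16L1, rose by 0.55 (adjusted p = 3.9e-05, edgeR), from 18.9, 20.6 and 20.9 CPM to 26.2, 30.5 and 31.6 CPM, and so moved opposite to ATG16L1. TP53INP1, a p53 target that binds LC3, rose by 0.45, and WDFY3 (ALFY), a scaffold that links SQSTM1 to the conjugation machinery, rose by 0.43, or by 0.25 with length and GC offsets.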

How the data were processed

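RNA-seq of 6 Huh7 libraries was analysed. The per-gene counts are raw whole-number counts deposited by the authors, and HISAT2, StringTie and SAMtools were used with hg38, per the submitters' processing notes. No source used here gives the counting tool, annotation, strand setting or treatment of multiply matching reads. The log2 fold changes (control over knockdown) and p-values deposited by the authors were only set beside the results.

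Of 28915 deposited entries, 1521 repeats of a gene name were removed. Totals lay between 16258803 and 18106207 counts. edgeR 4.0.16 (R 4.3.3) was run on all genes with filterByExpr, TMM, glmQLFit and glmQLFTest and Benjamini-Hochberg adjustment at 0.05, with the biological coefficient of variation at 6.87%. Fold changes set CTSV shRNA over the control, and the SE is the log2 fold change over the root of the F statistic. TPM was computed here from counts and 1 GENCODE v29 transcript per gene, taking an APPRIS principal one where tagged. Promoter windows are RefSeq's (GRCh38.p14), matched by symbol for 31 genes. The test was checked on simulated counts, with 50 changed genes at each fold. It recovered 18% of changes of 1.2 fold, 60% of 1.5 fold, 64% of 2 fold and 92% of 3 fold, with 3 false calls. The changed genes were few among the 15608 simulated, while 40.3% of all genes tested here were called. The adjusted p depends on this share, so the rates cannot be carried over to the listed genes. Among these, NBR1 and ATG4B were called at 1.161 and 1.187 fold. A gene that was not called may still have changed.

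Alternatives were RLE factors, other filters, a replicate block, DESeq2 1.42.0, all entries, no mitochondrial genes, length and GC loess offsets (span 0.5) and leaving out each library. Called genes with a log2 change of at least 0.3 and the 5 uncalled genes of highest counts were to be given per library with counts and CPM, and of the longer list up to 5 rises and 5 falls of at least 1 mean CPM. The 35 genes and lists were chosen with earlier results of these data known. For 4 genes no promoter entry was used.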

Additional observations from a re-analysis of the deposited data

How the results depend on the processing

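The count of 10 falls was 6 to 9 when any 1 library was left out, lowest without knockdown replicate 1, and the count of 4 rises was 4 in each of these fits. Length and GC offsets gave 2 rises and 15 falls, and a share of 32.5% rises among all calls in place of 46.4%. In the longer list 7 to 11 rises and 22 to 25 falls were found without 1 library. Under the replicate block 4 genes rose and 10 fell, and the block ended no call among the 35 genes. Same-numbered libraries had correlations of -0.0122, -0.00253 and 0.0212 in their deviations from the group means. No pairing by replicate number was visible in these values, but they cannot settle what the numbers stand for. The offsets added calls of falls for ATG5, ATG9A, ATG10, WIPI2 and OPTN. They also moved the median log2 fold change of all tested genes from 0.0187 to -0.0663, and that of the 34 genes from -0.07 to -0.17. How much of the added and lost calls lay in this general shift was not tested. Of the uncalled genes 11 changed sign in some fits, and no value of the opposite sign passed the threshold. With length and GC offsets the log2 fold changes were ULK2 at -0.069, PIK3C3 at -0.102, ATG14 at -0.0225, ATG4A at -0.0627, ATG12 at -0.0742 and CALCOCO2 at -0.0377. The replicate block gave ULK2 -0.00353 and all deposited entries gave ATG4A -0.00566. Without 1 library, ULK2 ranged from -0.216 to 0.384, ATG4A from -0.0782 to 0.176, ATG4C from -0.0634 to 0.0283, ATG5 from -0.102 to 0.0131, GABARAP from -0.68 to 0.0649, GABARAPL1 from -0.0279 to 0.104 and GABARAPL2 from -0.0939 to 0.0786. The cause of these shifts was not tested. ULK2 and GABARAP had at most 22 counts in a library, so only large changes could be called.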
